A study of Mus musculus with 16 samples.

Results

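Nuclear transfer embryonic stem cells (ntESCs) are lines derived from blastocysts that were made by placing the nucleus of a somatic cell in an enucleated oocyte. Here the 9 ntESC lines named AN were compared by whether they could form a whole animal, in a series that holds 16 lines in all. In tetraploid complementation, cells are injected into a tetraploid blastocyst, whose own cells form mainly the extraembryonic tissues, so a pup derives from the injected line. The 4 lines AN1, AN9, AN15 and AN20 gave pups in this assay and are called fully reprogrammed (AN F). The 5 lines AN2, AN3, AN5, AN6 and AN7 gave none and are called partially reprogrammed (AN P). Each is a clonal line from an SCNT blastocyst, and each was sequenced once, without treatment, at passage 5 to 7. All shared the same donor genome. Their nuclei came from adipocyte progenitor cells (APCs) of mice that had been produced wholly from the iPSC line 37iPSC. These mice carried M2rtTA, the doxycycline-controlled activator (strain 129-M2rtTA in the labels). The paper calls this a secondary reprogramming system, whose ntESCs and iPSCs keep an identical genomic insertion. Adding doxycycline to such APCs gave iPSCs. The oocytes came from B6D2F1 females, and blastocysts were plated on mouse embryonic fibroblast feeders, with lines kept in serum and LIF. The other 7 lines of the series are iPSCs from the same APCs (AI lines) and are used here only to place single values.

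A line, sequenced once, is the replicate in this design. The p-values thus rest on the spread between clones and between libraries, which cannot be told apart. Embryonic stem cells keep a network of transcription factors, among them Pou5f1, Sox2, Nanog, Esrrb and Zfp42, that holds them in the naive state. In serum cultures a part of the cells drifts toward primed and early lineage states, and another small part passes through a state resembling the early cleavage embryo. Imprinted genes, which are read from only the maternal or only the paternal copy, carry their marks through somatic cells into the reprogrammed line. Grb10 is one of these genes. It encodes an adaptor that binds the insulin and IGF receptors and restrains growth.

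The table gave FPKM, a measure of fragments scaled by transcript length and library size, for 22552 genes. Of these, 11735 reached an FPKM of 1 on average over the AN lines and were compared, small RNA symbols left out, on the log2(FPKM + 1) scale, on which a difference understates the change of low genes. The number of reads was unknown. The depth of the lines relative to AN1, read from the steps between low FPKM values, was 0.971 to 1.19. The summed FPKM was 672016 to 850666 per line, of which small RNA symbols took 16.7% to 28.1%.

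Pluripotency genes were high in every AN line. Pou5f1 was measured at 712 to 818 FPKM in AN F and 657 to 903 in AN P. Sox2 was at 189 to 208 and 153 to 241, and Nanog at 76.8 to 104 and 78.1 to 98.0. Zfp42 and Esrrb spanned wider ranges, 70.6 to 166 and 20.01 to 52.7, and AN6 was lowest for both. The ranges of AN F and AN P overlapped for all 5 genes. Of 12 genes of adipocyte progenitors, 8 passed the filter, with mean log2 levels of 2.11 to 2.62 in AN F and 2.24 to 2.44 in AN P, while Adipoq, an adipocyte hormone, was near 0, at 0.0334 to 0.205 FPKM. Afp, a marker of visceral endoderm, did not exceed 0.0417. All 30 fibroblast markers passed the filter, with Col1a1 at 62.5 to 165 in AN F and 74.99 to 226 in AN P. The lines were grown on fibroblast feeders, and no measure of the feeder share was used here. The Y-linked genes Eif2s3y (19.8 to 48.2 FPKM) and Ddx3y (3.59 to 9.24) were present in every line.

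Some libraries stood apart from the rest, and the main results are given with and without them. AN9 and AN20, both AN F, shared a trend over base composition. Among 8155 genes that averaged an FPKM of 5 or more, sorted into 5 equal bins by the GC content of their transcripts, the median deviation from the middle line was 0.22 in AN9 and 0.28 in AN20 on the log2 scale in the bin of lowest GC. In the bin of highest GC it was -0.17 and -0.25. The other 7 lines stayed between -0.08 and 0.05 in both. AN20 and AN6 also had opposite trends over exon length, with AN20 at -0.16 and AN6 at 0.14 in the bin of shortest genes and at 0.12 and -0.18 in the bin of longest genes. AN6 and AN20 were the most divergent lines. AN6 lay more than 0.3 above all 8 other lines in 829 genes and below them in 669, and AN20 in 342 and 254, against 6 to 116 above and 6 to 31 below in each of the other 7 lines.

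**Figure D1:**
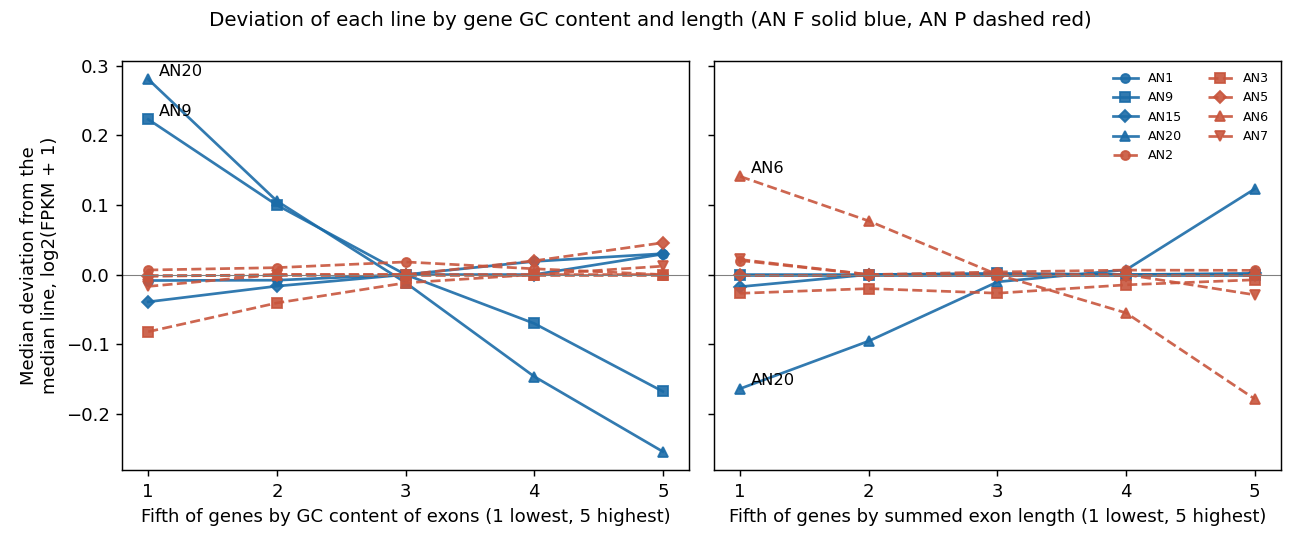
Median deviation of each AN line from the median of the 9 lines, on the log2(FPKM + 1) scale, over 5 bins of genes by GC content and by exon length (8155 genes, 1630 to 1632 in each bin). AN9 and AN20 fell from 0.22 and 0.28 in the lowest GC bin to -0.17 and -0.25 in the highest, while AN20 and AN6 ran in opposite directions over exon length.

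No gene passed the test across all genes. In limma's moderated test with Benjamini-Hochberg adjustment, 0 of the 11735 genes (0%) had an adjusted p under 0.05, and the smallest adjusted p was 0.601. Before adjustment, 403 genes (3.43%) higher in AN F and 383 (3.26%) lower had a p under 0.05. A second, purely descriptive measure was then taken, the genes whose 4 AN F values all lay on the same side of all 5 AN P values. There were 153 such genes, 69 higher (0.588% of those tested) and 84 lower (0.716%) in AN F. Any split of the lines into 4 and 5 separates some genes, and how many was not computed. These counts by themselves thus show no difference between the groups. The gaps were small. The distance between the nearest lines of the groups had a median of 0.03 on the log2 scale in both directions, and it exceeded 0.1 in 2 higher and 5 lower genes. The median difference of the group means was 0.27 for the higher and -0.27 for the lower genes, beside -0.01 over all genes tested.

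The genes with the widest gaps in each direction were both imprinted. Grb10 led the genes higher in AN F and Zrsr1 those lower. Zrsr1 is a paternally expressed gene for a splicing factor and lies inside its neighbor Commd1. Because imprinted expression is tied to CpG methylation, the promoters of both genes are shown, 250 bases before to 50 bases after each start in RefSeq on build GRCm38.p6, 5′ to 3′ on the strand of the gene, with each CG dinucleotide in capitals. Methylation was not measured in these files. The first Grb10 promoter (chr11:12037371-12037670, minus strand) held 45 CG, as many as or more than all but 1.93% of the 32851 promoters in the table, whose median was 7. The second Grb10 promoter (chr11:12027922-12028221, minus strand) held 9, and the promoter of Zrsr1 (chr11:22971755-22972054, plus strand) held 10. At least as many were found in 45.8% and 43.5% of promoters, respectively. The FPKM values are per gene and do not tell the Grb10 promoters apart.
Grb10 promoter 1: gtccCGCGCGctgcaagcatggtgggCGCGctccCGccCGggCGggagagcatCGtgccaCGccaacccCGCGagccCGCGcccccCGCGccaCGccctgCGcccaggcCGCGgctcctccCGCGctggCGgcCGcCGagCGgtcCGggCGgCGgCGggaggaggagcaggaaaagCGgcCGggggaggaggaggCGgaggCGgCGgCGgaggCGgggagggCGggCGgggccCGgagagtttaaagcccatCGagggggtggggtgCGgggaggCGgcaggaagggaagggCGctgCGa
Grb10 promoter 2: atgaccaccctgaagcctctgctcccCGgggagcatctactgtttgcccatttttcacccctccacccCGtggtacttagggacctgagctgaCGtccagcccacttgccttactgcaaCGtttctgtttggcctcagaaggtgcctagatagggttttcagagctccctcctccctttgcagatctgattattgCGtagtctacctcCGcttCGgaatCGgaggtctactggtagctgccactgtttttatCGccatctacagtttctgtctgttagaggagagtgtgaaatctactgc
Zrsr1 promoter: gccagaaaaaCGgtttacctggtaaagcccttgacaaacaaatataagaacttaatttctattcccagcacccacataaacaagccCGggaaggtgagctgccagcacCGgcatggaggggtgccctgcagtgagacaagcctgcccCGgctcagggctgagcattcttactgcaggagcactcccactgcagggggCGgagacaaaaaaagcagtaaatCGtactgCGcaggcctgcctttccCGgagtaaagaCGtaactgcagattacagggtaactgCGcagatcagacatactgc

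Grb10 (mm9 chr11:11830511-11938686, minus strand) was measured at 46.1, 39.9, 36.8 and 45.1 FPKM in AN1, AN9, AN15 and AN20. In AN2, AN3, AN5, AN6 and AN7 it was at 32.9, 23.2, 33.0, 8.89 and 18.1. The AN F lines were close together and all higher, while the AN P lines ran from just under them down to AN6. The difference was 0.95 ± 0.30 (SE) on the log2 scale, with limma's p at 0.00922 before and 0.601 after adjustment. The SD on the log2 scale was 0.15 over the AN F lines and 0.74 over the AN P lines. Without AN6 the difference was 0.66, without AN9 and AN20 it was 0.93, and it was 0.93 after the GC and length trends were taken out of each line. The 7 AI lines spanned 6.60 to 54.9, beyond both AN groups.

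Zrsr1 (mm9 chr11:22873215-22876498, plus strand) was lower in AN F. Its values were 5.09, 5.73, 6.85 and 6.07 in AN F and 7.94, 8.25, 7.78, 8.80 and 8.85 in AN P, in the order of lines used above. Both groups were tight, and AN15 came nearest to AN P. The difference was -0.43 ± 0.10 (SE), the smallest unadjusted p of any gene in limma's test (0.000836, or 0.601 after adjustment). It stayed at -0.43 without AN9 and AN20, at -0.41 without AN6, and was -0.54 with the trends removed. The AI lines spanned 5.02 to 9.72. Commd1, which encloses Zrsr1 on the other strand, was at 42.0 to 66.7 in AN F and 40.8 to 51.6 in AN P, which overlapped. The strand of the reads is not stated, so reads of the overlapping part cannot be told apart.

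**Figure D2:**
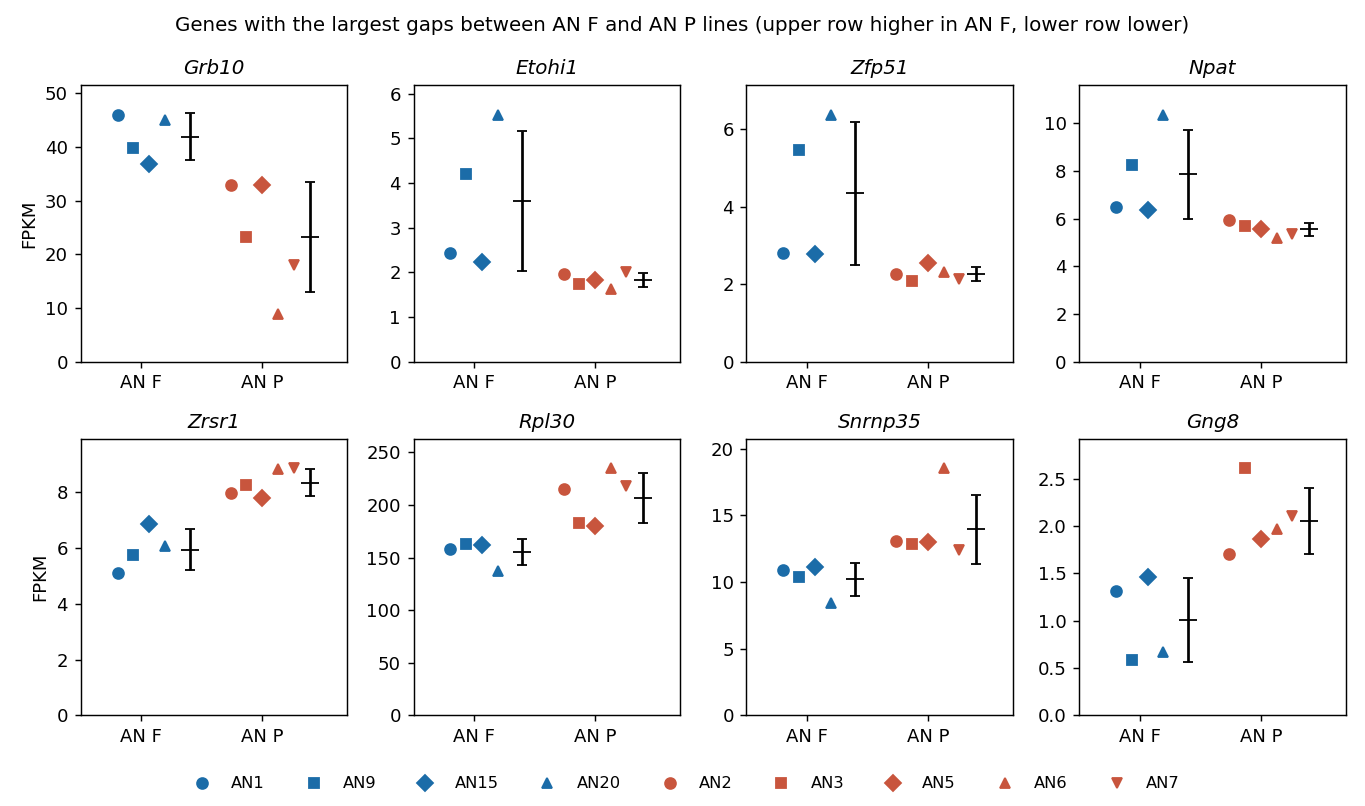
FPKM per line on a linear axis for Grb10, Etohi1, Zfp51 and Npat (upper row, higher in AN F) and Zrsr1, Rpl30, Snrnp35 and Gng8 (lower row, lower in AN F). Points are single lines, and bars are the mean ± SD of the 4 AN F and 5 AN P lines. For Etohi1, Zfp51 and Npat the AN F lines split, with AN9 and AN20 far above AN1 and AN15, whereas the 4 AN F values of Grb10 stayed within 36.8 to 46.1.

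The next genes by gap on the higher side behaved differently from Grb10. Etohi1 was at 2.42, 4.202, 2.23 and 5.53 FPKM in AN F and at 1.96, 1.73, 1.82, 1.62 and 2.01 in AN P. Zfp51, a zinc finger gene, was at 2.80, 5.45, 2.77 and 6.37 and 2.27, 2.09, 2.54, 2.33 and 2.13. Npat, a coactivator of histone gene transcription in S phase, was at 6.50, 8.23, 6.34 and 10.4 and 5.94, 5.68, 5.56, 5.20 and 5.33. In all of them AN9 and AN20 were the 2 highest lines, and AN1 and AN15 sat just above AN P. The differences of 0.64, 0.64 and 0.42 were 0.23, 0.21 and 0.18 without AN9 and AN20. Of the stretches of 50 bases in the Etohi1 transcript, 39.8% also occur in other annotated genes, so its value is uncertain where reads were shared among them; for Grb10, Zrsr1 and Npat the share was 0%.

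Among the rest of the 15 higher genes with the widest gaps, Cdk6, a kinase that drives entry into the cell cycle, was at 7.61 to 9.31 FPKM in AN F and 6.52 to 7.20 in AN P. Lpar4, a receptor for lysophosphatidic acid, was at 6.41 to 8.45 and 4.93 to 6.09, and Utp14a, which acts in ribosomal RNA processing, at 67.1 to 82.2 and 59.5 to 63.9. Plag1, a zinc finger growth regulator, was at 1.23 to 1.57 and 0.892 to 1.13. Zfp322a (0.45), Kbtbd8 (0.38), Gm9766 (0.31), Ankrd13c (0.27), Rsbn1 (0.26), Fam184a (0.24) and AI480653 (0.19) completed the set, with the log2 difference in brackets. Gm9766, Plag1 and Fam184a lay between 0.678 and 1.62 FPKM in all lines, close to the filter.

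On the lower side, Zrsr1 was followed by Rpl30, Snrnp35 and Gng8. Rpl30, a protein of the large ribosomal subunit, was at 159, 163, 162 and 137 FPKM in AN F and 215, 183, 180.4, 235 and 218 in AN P. Snrnp35, a protein of the minor spliceosome, was at 10.9, 10.4, 11.1 and 8.399 and 13.1, 12.8, 13.0, 18.5 and 12.4. Gng8, a G protein gamma subunit of low expression, was at 1.31, 0.586, 1.46 and 0.672 and 1.71, 2.61, 1.86, 1.97 and 2.11. AN20 was lowest for Rpl30 and Snrnp35, and AN6 was highest for both. The differences were -0.41 ± 0.10, -0.41 ± 0.13 and -0.62 ± 0.15 (SE), and limma's adjusted p was 0.601 for each. Without AN9 and AN20 they were -0.35, -0.30 and -0.35.

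The remaining lower genes with the widest gaps included parts of RNA and protein handling. Snrpf, a core protein of the spliceosome, was at 193 to 253 FPKM in AN F and 267 to 310.0 in AN P. Srp54b, of the signal recognition particle, was at 0.936 to 1.5002 and 1.69 to 2.33, and Derl2, of endoplasmic reticulum degradation, at 10.9 to 11.8 and 12.7 to 15.3. Snrpf shared 89.5% of its 50-base stretches with other genes and Srp54b shared 73.0%, so both values are uncertain. Higd2a was at 47.3 to 66.3 and 70.9 to 96.2, and Cib1, a calcium and integrin binding protein, at 24.9 to 31.6 and 33.9 to 43.5. The log2 differences of 1810006K21Rik, Carkd, Dpcd, Gm16517, E330020D12Rik and Tmem175 were -0.52, -0.41, -0.33, -0.32, -0.23 and -0.20.

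Of the 10 genes with the smallest unadjusted p, 6 had ranges that did not overlap, Zrsr1, Gng8, Rpl30, Tysnd1, Igfbp6 and Pet117, all lower in AN F. Tysnd1, a peroxisomal protease, was at 7.88 to 10.2 FPKM in AN F and 10.6 to 12.8 in AN P. Igfbp6, which binds insulin-like growth factors, was at 1.52 to 3.28 and 3.35 to 4.55, and Pet117 at 39.7 to 67.2 and 68.4 to 85.7. Xist, the RNA that silences an X chromosome in female cells, was low in all of these lines, at 3.47 to 4.89 and 4.83 to 6.78, and overlapped slightly. Rpph1, the RNA of ribonuclease P, was at 2.95 to 7.16 and 6.91 to 14.8. Ndufs5, of respiratory complex I, was the one gene of the 10 that was higher in AN F (8.24 to 14.6 against 6.00 to 8.98), while its copy BC002163 was lower (23.2 to 27.8 against 27.8 to 39.1). Reads can match both. Of the 50-base stretches of BC002163, 72.8% occur in Ndufs5, and of those of Ndufs5, 31.4% occur in BC002163, so their opposite differences are uncertain.

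The non-overlapping genes differed from the rest in properties of sequence. The higher genes had a median exon length of 4423.5 bases and a median GC content of 42.8%, and the lower genes of 1485 bases and 52.98%, beside 3077.5 bases and 50.2% over all genes tested. These are the properties over which AN9, AN20 and AN6 deviated. Of the 69 higher genes, AN20 was the outermost AN F line in 56 (81.2%) and AN6 the outermost AN P line in 37 (53.6%). Of the 84 lower genes, the counts were 66 (78.6%) and 53 (63.1%). Over all genes tested, AN20 was the highest of the 9 lines in 21.2% and the lowest in 25.5%, and AN6 in 25.2% and 25.3%. These shares are no baseline for the counts above, because the outermost line of a group can only come from that group. AN20 was highest in 2488 genes and lowest in 2996, against 588 to 1241 and 543 to 1157 in the other AN F lines. AN6 was highest in 2959 and lowest in 2966, against 643 to 1069 and 358 to 1122 in the other AN P lines. AN1 or AN15 was the AN F line nearest to AN P in 61 of the higher genes (88.4%) and in 71 of the lower genes (84.5%). With the GC and length trends removed, 30 of the 69 and 27 of the 84 still did not overlap, and 27 and 23 held under every scaling tried. The part of these trends in the differences was not tested beyond these values.

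**Figure D3:**
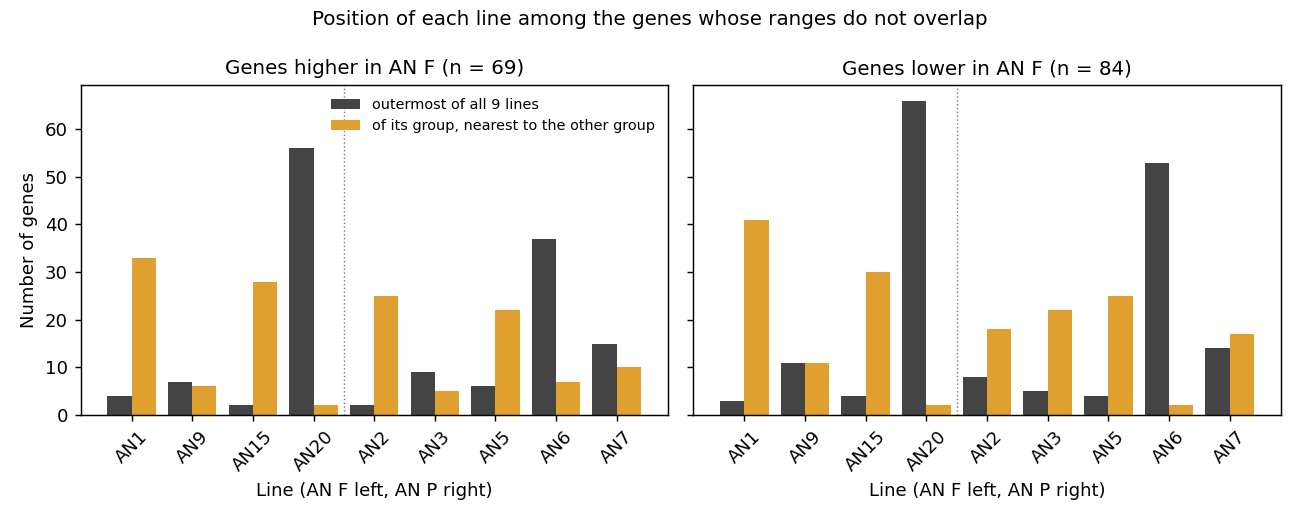
Number of the 69 higher and 84 lower non-overlapping genes in which each line was the outermost of its own group or the nearest to the other group. AN20 and AN6 were outermost in 56 and 37 of the higher genes and in 66 and 53 of the lower genes, and AN1 and AN15 formed the inner edge of AN F in most.

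Lists of genes are described next by their counts and medians, beside 3.43% higher and 3.26% lower at an unadjusted p under 0.05 over all genes. Over all genes tested, 69 (0.588%) were higher and 84 (0.716%) lower with non-overlapping ranges, and 5499 of 11735 had a positive difference. The pluripotency and lineage lists held no gene with non-overlapping ranges and none at an unadjusted p under 0.05 in limma's test. The 27 tested genes of naive pluripotency had a median difference of 0.12, which was -0.02 without AN6. Their mean level on the log2 scale was 5.18 in AN6 and 5.74 to 6.00 in the other 8 lines. For 25 genes of primed and early lineage states the median was -0.07, for 13 of primitive endoderm -0.25, and for 9 of trophoblast -0.42. The last 2 were -0.09 and -0.16 without AN6, and the primed list was at 0.05 without AN20. The means of trophoblast genes were 4.15 in AN6, 3.30 in AN3 and 3.27 in AN15, against 2.57 to 2.89 in the other lines. Thus each group held lines at both ends.

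Genes of the state resembling the early embryo (2-cell-like genes) varied between lines within both groups. Only 4 of 25 listed genes passed the filter. Zscan4c, Zscan4d and Zscan4f, which belong to a cluster that marks this state, were summarized with the other member as a mean log2 level per line. It was 0.18, 1.18, 1.86 and 1.99 in AN1, AN9, AN15 and AN20 and 0.42, 1.26, 0.32, 0.49 and 2.05 in AN2, AN3, AN5, AN6 and AN7. Zscan4c itself was at 0.178, 1.55, 4.23 and 3.76 FPKM in AN F and 0.570, 1.98, 0.350, 0.454 and 4.28 in AN P. AN1, AN2, AN5 and AN6 were low and the other 5 lines were higher, a division that crosses the groups. It coincided with passage. The low lines were all at passage 7, while AN3 was at passage 5 and AN9, AN15, AN20 and AN7 were at passage 6. Clone and passage cannot be told apart here, and the part of passage in this division was not tested. Zscan4f shared 97.8% of its 50-base stretches with other genes, mostly copies within the cluster, and Zscan4c 78.2%, so the members cannot be told apart with confidence.

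**Figure D4:**
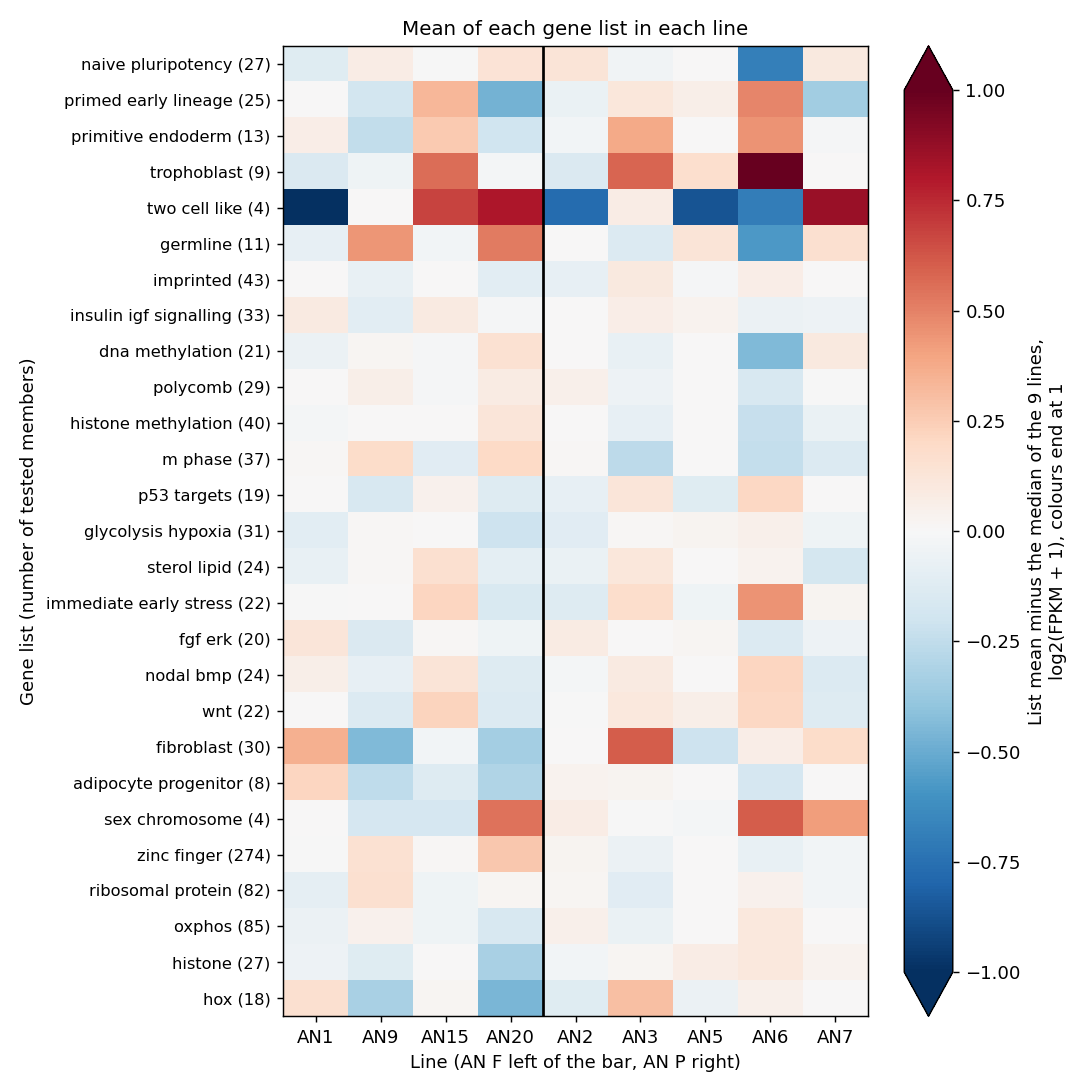
Mean log2(FPKM + 1) of each gene list in each AN line, shown as the difference from the median of the 9 lines. AN6 was lowest for naive pluripotency and highest for trophoblast, and the low and high lines for the 2-cell-like list fell in both groups.

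Among 43 imprinted genes tested, Grb10 and Zrsr1 were the ones with non-overlapping ranges. At an unadjusted p under 0.05, Grb10, Ube3a (0.43) and Zdbf2 (0.42) were higher and Zrsr1, H19 (-0.68) and Snurf (-0.39) were lower in AN F. The median over the list was -0.03. H19, a maternally expressed RNA, was at 249, 111, 155 and 106 FPKM in AN F and 230.3, 233, 193, 327 and 209 in AN P, and AN1 lay above all AN P lines except AN6. Igf2, its paternally expressed neighbor, was at 53.8 to 131 and 87.5 to 133. Of 33 genes of insulin and IGF signaling, Grb10 and Rictor (0.31), a subunit of the mTOR complex that phosphorylates Akt, were higher at that p, and Akt1 (-0.28) was lower. Grb10 was the only member of that list whose ranges did not overlap, and the median of the list was 0.01.

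Of 37 M phase genes, 11 were higher and 0 lower in AN F at an unadjusted p under 0.05, and 30 had a positive difference, with a median of 0.17. The median was 0.15 with the trends removed, 0.14 without AN20 and 0.16 without AN6. Cenpe, a kinesin of the kinetochore, was at 20.8, 25.3, 19.9 and 34.3 FPKM in AN F and 19.4, 17.9, 18.4, 13.4 and 17.3 in AN P. Kif11, the kinesin that separates spindle poles, was at 34.8, 49.1, 35.4 and 59.3 and 34.4, 31.1, 34.6, 25.1 and 33.7. These were the M phase genes with non-overlapping ranges, and in both AN20 was the highest line, AN9 the next and AN6 the lowest. The differences of 0.49 and 0.45 were 0.24 and 0.15 without AN9 and AN20. The other members at that p were Cenpf (0.50), Casc5 (0.63), Ect2 (0.49), Smc2 (0.40), Ncapg (0.40), Smc4 (0.39), Top2a (0.36), Kif23 (0.22) and Kif20a (0.20). They build the kinetochore, condense chromosomes or complete division. The direction of this list and of the next was known from earlier results on these lines, so the counts are not independent evidence of it. The mean of the list was 5.72, 5.89, 5.59 and 5.91 in AN F and 5.72, 5.44, 5.70 and 5.46 in AN2, AN3, AN5 and AN6 and 5.57 in AN7. AN2 and AN5 were thus close to AN1 and lay above AN15.

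Zinc finger genes named Zfp, many of them DNA-binding repressors, numbered 274. At an unadjusted p under 0.05, 36 were higher and 2 lower, with 206 positive differences and a median of 0.13, which was 0.08 with the trends removed and 0.07 without AN20. Zfp654 was at 2.87, 5.16, 2.74 and 6.39 FPKM in AN F and 2.60, 2.29, 2.22, 1.701 and 2.46 in AN P, and Zfp770 at 5.51, 7.38, 5.34 and 7.67 and 5.11, 4.40, 4.79, 3.61 and 4.55. As with Zfp51, AN9 and AN20 stood above the other AN F lines. Zfp248, at 1.73 to 1.96 and 1.21 to 1.67, had its 4 AN F lines close together. Zfp61 went the other way, at 3.71 to 4.70 in AN F and 4.77 to 6.09 in AN P.

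Lists of chromatin enzymes held no gene that limma called after adjustment. Of 40 genes for histone methylation, 5 were higher at an unadjusted p under 0.05, Kdm3a (0.36), Jhdm1d (0.35), Jmjd1c (0.29), Setd2 (0.28) and Kdm6a (0.26). All but Setd2, which methylates histone H3, are counted among the histone demethylases. Of 29 Polycomb genes, Mtf2 (0.49) was higher. Of 21 genes for DNA methylation and its removal, 0 passed in either direction, and the median of 0.12 was -0.01 without AN6. Tet2, which oxidizes methylcytosine, was at 5.57, 7.64, 6.48 and 10.3 FPKM in AN F and 6.92, 5.51, 6.19, 2.30 and 7.32 in AN P, with AN6 far below the rest.

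Of 85 genes of oxidative phosphorylation, 7 had non-overlapping lower ranges in AN F, beside 84 of all 11735 genes tested (0.716%). At an unadjusted p under 0.05 in limma's test, 13 were lower and 1 higher. The median was -0.07, which was -0.02 with the trends removed and -0.04 without AN20. Ndufc2, of complex I, was at 76.0 to 139.7 FPKM in AN F and 144 to 190.1 in AN P. Ndufb3 and Ndufb6, of the same complex, were at 116 to 169.6 and 172 to 247, and at 137 to 177 and 180.5 to 200.3. Cox4i1, of cytochrome c oxidase, was at 478 to 483 and 488 to 596, and Atp5h, of ATP synthase, at 387 to 426 and 437 to 477. The 82 ribosomal protein genes had no lower median, with 0.03 as deposited and 0.12 with the trends removed and 48 positive differences, although 7 were lower and 1 higher at that p. Rpl36a (1732 to 2036 against 2052 to 2427) and Rpl37a (1014 to 1326 against 1334 to 1651) joined Rpl30 in not overlapping. They shared 22.9% and 45.05% of their 50-base stretches with other genes, and Rpl30 13.5%.

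In the signaling lists, too, limma's adjusted p was above 0.05 for every gene. Among 24 genes of Nodal and BMP signaling, Bmpr1a, a BMP receptor, was at 15.5 to 19.6 FPKM in AN F and 12.9 to 15.4 in AN P, and Smad4, the common transducer, at 24.51 to 27.2 and 21.3 to 24.46. The ranges of neither gene overlapped, yet the list's median was -0.06, and 0.01 without AN20. Bmpr1a (0.27) and Skil (0.37), which restrains Smad proteins, were higher at an unadjusted p under 0.05, and Smad4 had an unadjusted p of 0.0507. The lists for FGF and ERK (20 genes), WNT (22), glycolysis and hypoxia (31) and immediate early genes (22) held 0 genes at that p, with medians of 0.01, -0.05, -0.09 and -0.08. Without AN20 these were 0.05, -0.02, -0.04 and -0.02, and the last was 0.03 without AN6. The germline list (11 genes) also held 0, with a median of 0.34, which was 0.19 without AN20 as well as without AN6 and 0.22 with the trends removed. Of 19 p53 targets, Eda2r (0.31) was higher and Ei24 (-0.26) lower. Of 24 sterol and lipid genes, Mvd (-0.28) was lower.

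Fibroblast and Hox genes leaned lower in AN F without separating the groups. Of 30 fibroblast markers, 28 had a negative difference, where 5499 of all 11735 genes tested had a positive one. The median of the markers was -0.25, and Tpm2 (-0.49) was the one past an unadjusted p of 0.05 in limma's test. Their mean level was 5.91, 5.11, 5.53 and 5.21 in AN1, AN9, AN15 and AN20 and 5.55, 6.16, 5.35, 5.62 and 5.74 in AN P. AN3 was highest and AN1, an AN F line, was next. The part of this difference in the results above was not tested. Of 18 Hox genes, which pattern the body axis and are low in naive cells, 17 had a negative difference (median -0.20, but -0.08 without AN20 and -0.13 with the trends removed), and Hoxa7 (-0.34) and Hoxa10 (-0.32) passed that p. AN3 and AN1 were again the highest lines for this list, at 1.85 and 1.72. The 27 histone genes had a median of -0.16, which was -0.05 without AN20 and -0.08 with the trends removed, and Hist1h4b (2.97 to 3.74 against 3.82 to 5.68), Hist3h2a and H2afj were lower at that p. For 8 adipocyte progenitor genes the median was -0.14, and -0.06 without AN20. In bulk RNA, fewer cells of a type and less RNA per cell cannot be told apart.

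Line-to-line spread was similar in the 2 groups, and in AN P a large part of it came from AN6. The median SD of a gene on the log2 scale was 0.18 over the 4 AN F lines and 0.16 over the 5 AN P lines. The SD was larger in AN F for 6480 genes (55.2%). An SD over 0.5 was found for 309 genes in AN F (2.63%) and 350 in AN P (2.98%). Without AN6 the AN P median was 0.12 and the number over 0.5 fell to 106. The AN F median was 0.16 to 0.18 with any 1 line left out. Without AN9 and AN20 it was 0.09, but that is an SD over only 2 lines, which is not comparable with the others. AN6 was the line furthest from its group mean in 48.0% of genes, against 8.73% to 17.0% in the other AN P lines. In AN F the shares were nearer to each other, with 28.6% in AN1, 17.1% in AN9, 21.5% in AN15 and 32.8% in AN20.

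Pairs of lines from different groups were about as alike as pairs within a group. The root mean square difference over all genes was 0.184 to 0.605 (median 0.335) for the 20 pairs between the groups. It was 0.254 to 0.430 (median 0.370) for the 6 pairs within AN F and 0.181 to 0.478 (median 0.291) for the 10 pairs within AN P. AN1 was nearest to AN5 (0.184), an AN P line, and AN3 and AN15 were nearest to each other (0.203). AN9 and AN20 were nearest to each other (0.254), and so were AN2 and AN5 (0.181). AN6 was nearest to AN15, at 0.362. By passage, AN1, AN2, AN5 and AN6 were at 7, AN9, AN15, AN20 and AN7 at 6 and AN3 at 5.

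The genes with the largest spread were of several kinds. In AN F, LOC624853 was at 2672 FPKM in AN9 and 3394 in AN20 against 9.85 to 15.3 in the other 7 lines. AF357355, annotated as a snoRNA, was at 4096 in AN9 and 4155 in AN7 and at 0 elsewhere. Amd1, an enzyme of polyamine synthesis, was listed at 0.0159 to 0.0178 in 4 lines and at 9.24 to 12.7 in the other 5. Apoo-ps, Rps27, Rangrf, Gm4535 and Gm12238 showed similar jumps, and LOC100302567 was at 28.6 to 425. Amd1 shared 88.9% of its 50-base stretches with other genes, Apoo-ps 98.5%, Rps27 99.0%, Rangrf 99.9%, Gm4535 55.2% and Gm12238 all of them, so these jumps are uncertain as changes of expression. Hes2, a relative of the Hes repressors, was at 10.1 in AN15 and at no more than 0.434 elsewhere. In AN P the most variable genes besides these were Krt8, Krt18 and T, all through AN6.

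AN6 combined low naive genes with high levels of several keratins and of T. Of other epithelial genes, the cadherin gene Cdh3 was lowest in AN6 (4.60 against 5.90 to 9.49). Cdh1 and Esrp2 were within the range of the other lines. Cdh3, Cdh1 and Esrp2 all lie in a stretch of chromosome 8, described below, whose genes were low in AN6 (median deviation -0.26). They thus cannot show whether epithelial genes as a class were raised in AN6. Krt8 and Krt18, keratins of simple epithelia, were at 662 and 469 FPKM in AN6, against 45.7 to 166 and 33.4 to 104 in the other lines. Krt19 was at 72.1 against 4.56 to 16.5. T, the mesoderm factor Brachyury, was at 21.8, 41.9, 92.5 and 14.7 in AN F and 24.6, 82.5, 41.9, 257 and 16.2 in AN P. AN15, an AN F line, and AN3 were the next highest after AN6. Cyp26a1, which breaks down retinoic acid, was led by the same lines, with 40.1 in AN6, 13.0 in AN3, 12.7 in AN15 and 1.83 to 3.60 in the rest. Krt7 and Sp5 also had AN6, AN15 and AN3 as their highest lines, with 23.1 and 29.0 in AN6. Below the other lines in AN6 were Tet1 (7.06 against 19.98 to 42.8), which oxidizes methylcytosine, Epas1 (2.77 against 8.43 to 15.6), a hypoxia factor, and Fgf4 (7.39 against 18.9 to 28.3), the growth factor of naive cells. Nr0b1 was at 6.63 in AN6 and 15.4 to 21.9 elsewhere. Cdx2, a trophoblast and posterior factor, was at 4.75 in AN6, 3.72 in AN3 and 2.59 in AN15, and at 0.590 to 0.893 in the others.

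Each of the other lines also had genes of its own. In AN20, Mtrnr2l was at 228 FPKM against 34.4 to 101 in the other 8 lines, Gm13247 at 33.3 against 4.39 to 16.6 and Nup62cl at 23.4 against 8.15 to 13.0, while Snhg9, Fam173a and Pcbd2 were lowest. In AN9, Bnip3, a mitophagy gene induced by low oxygen, was at 55.9 against 21.1 to 40.1, with Gm561 and 2310009A05Rik also highest, and Igfbp5 was at 4.04 against 5.83 to 11.8, with Sncg and Rps27 also lowest. AN1 was highest for the collagen gene Col6a2 (20.1 against 7.28 to 15.7), Kcnj3 and Cd209c and lowest for Znrd1as, Fmr1nb and Usp11.

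AN15 was highest for Cdkn1c, an imprinted inhibitor of the cell cycle (33.5 against 7.57 to 26.1), Pex6 and A730008H23Rik. It was lowest for Taf9, a subunit of general transcription factor TFIID (94.3 against 175 to 223), and for Cdk7, the kinase of TFIIH (7.03 against 11.3 to 13.8), and also for Rpph1. Taf9 (mm9 chr13:101421298-101436368, plus strand) and Cdk7 (chr13:101466982-101500897, minus strand) lie next to each other. Both were lower in AN15 than in any other AN line. Taf9 shared 41.4% of its 50-base stretches with other genes.

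Within AN P, AN3 was highest for Myh11 (11.1 against 3.54 to 5.83), a smooth muscle myosin, Lox (106 against 37.1 to 62.1), which crosslinks collagen, and Inhba (98.7 against 27.9 to 60.4), an activin subunit, and lowest for Pttg1, Gm4987 and Gm10664. AN2 was highest for Mt2, Gli1 and Apoo-ps and lowest for Pisd-ps3, Bhlhe40 and Rian, an imprinted RNA (82.3 against 110 to 184). AN5 was highest for Enpp2 (10.8 against 3.77 to 6.86), Mapk13 and Ndrg2 and lowest for Spink3, Gm12238 and Postn (17.1 against 22.6 to 44.8), a matrix protein of fibroblasts. AN7 was highest for Rpl39l (18.0 against 4.31 to 9.51), Gm13238 and Gm12238 and lowest for Sema6a, Slc39a8 and Gbp2, an interferon-induced GTPase (5.64 against 8.71 to 71.9, where the top was AN6).

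By position, the largest deviation of a whole chromosome was that of chromosome 8 in AN7. There, the median deviation of 471 genes on chromosome 8 was 0.17, and it was 0.18 with the GC and length trends removed. The other 179 medians of a chromosome in a line lay between -0.11 and 0.09. Of the 84 lower genes, 10 (11.9%) were on chromosome 8, which holds 5.35% of the genes tested. Among them were Cox4i1, Carkd, Irf2, Rab8a, Spg7 and Use1. Use1, of vesicle transport, was at 70.2 to 77.1 in AN F and 78.0 to 98.0 in AN P, with AN7 highest. Chromosome 19 held 9 of the 84 (10.7%) with 3.37% of the genes tested.

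A second, shorter stretch of chromosome 8 varied across both groups. Among 317 windows of 25 neighboring genes, the windows with the largest SD over the 9 lines were adjacent, chr8:107850262-108734833 (0.25) and chr8:108734836-112385258 (0.20) in mm9, where the median window had 0.0582 and the 95th percentile was 0.122. They ranked 1 and 2 with the trends removed as well. The step ran from Cbfb to Psmd7 (chr8:107694574-110112382, 48 genes that averaged an FPKM of 5 or more). Its median deviation was 0.16 in AN1, 0.23 in AN9, -0.22 in AN15 and -0.32 in AN20. In AN P it was 0.25 in AN2, -0.28 in AN3, 0.24 in AN5, -0.26 in AN6 and 0 in AN7. The lines other than AN7 thus fell into higher and lower values, and both occurred in each group. AN7 was at 0 in the stretch but raised on both sides of it (0.24 and 0.16), so its stretch lay below its surroundings.

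Within that stretch most genes lay on the same side in a given line. In AN15, 0 of the 48 genes lay above the middle line, and in AN2, 45 did. Cirh1a, which acts in ribosome assembly, was at 184, 167, 99.0 and 101 FPKM in AN F and 188, 96.5, 179, 102 and 138 in AN P. Nob1, a nuclease of the small ribosomal subunit, was at 125, 110, 68.3 and 66.4 and at 115, 65.3, 118, 66.7 and 95.3. Prmt7, an arginine methyltransferase, was likewise highest in AN1, AN9, AN2 and AN5. Cdh1, the epithelial cadherin, lies in the same stretch and was at 184, 164, 122 and 121 in AN F and 192, 106, 196, 133 and 112 in AN P. In the 25 genes on either side, AN7 was at 0.24 and 0.16, and the medians of the other 8 lines were -0.14 to 0.04. In the AI lines the same 48 genes were at 0.18, 0.24, 0.16 and 0.24 in AI3, AI7, AI10 and GS4. They were at -0.25, -0.33 and -0.32 in AI9, GS9 and GS32. GS4 was higher still on both sides (0.38 and 0.51), so its stretch, like that of AN7, lay below its surroundings. The bounds of the stretch were chosen after its values were seen. The number of gene copies was not measured here, and the cause of the steps was not tested.

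**Figure D5:**
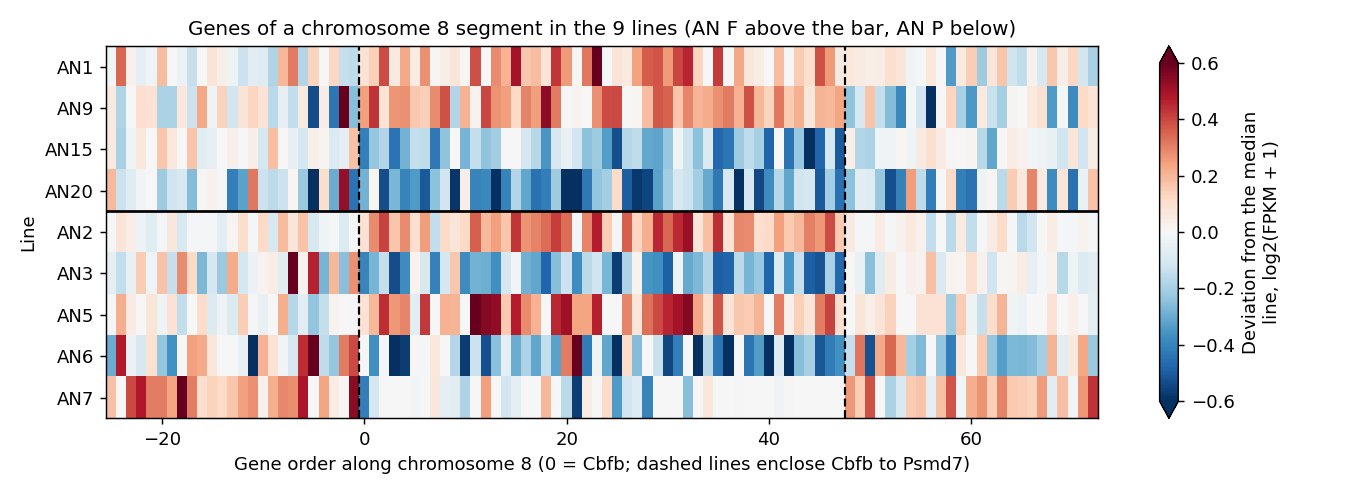
Deviation of each gene from the median of the 9 AN lines on the log2(FPKM + 1) scale, for 48 genes from Cbfb to Psmd7 on chromosome 8 and 25 genes on each side, in gene order. AN1, AN9, AN2 and AN5 were above and AN15, AN20, AN3 and AN6 below within the stretch, and AN7 was raised on both sides of it.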

How the data were processed

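RNA of 9 AN lines was sequenced in 1 library per line. The authors made the deposited FPKM values from single-end reads with TopHat 2.1.0 and Cufflinks 2.2.1 on mm9. HTSeq is named in the submitters' processing notes, without a role. The strand setting and the source of the annotation are not given in the sources used here. The paper assessed differences with Cuffdiff. It was not run here, so the results of limma's test come from a different method. Groups followed the tetraploid complementation results of the study, and columns were matched by line name.

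Values were used as log2(FPKM + 1). Of 22552 genes, 11975 averaged an FPKM of 1 or more over the AN lines, and 240 symbols starting with Mir, Snord, Snora, Scarna or Rnu were left out, including Mirg, which is no microRNA. The remaining 11735 were fitted with limma 3.58.1 in R 4.3.3 (moderated test with a mean-variance trend, two-sided, Benjamini-Hochberg adjustment, threshold 0.05). The fit was tested on simulated data. Non-overlapping ranges and SD were computed in Python 3.11.15, with no test.

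Of the genes tested, 11594 (98.8%) matched the mm9 annotation, which gave positions, exon length and GC content. Copies were sought as stretches of 50 bases of the longest transcript found in another annotated gene on either strand. GC and length trends were removed with a quadratic fit of each line's deviations from the median line. Deviations by position used 8155 genes that averaged an FPKM of 5 or more.

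Genes are named by rule: the 15 higher and 15 lower non-overlapping genes with the widest gap, the 10 smallest p, up to 5 non-overlapping members of each list, the 8 largest SD in each group, 3 genes above and 3 below all other lines in each line, and identity checks. Other genes, among them the list members at an unadjusted p under 0.05, Commd1, H19, Igf2, Tet2, the Zscan4 genes, T, Krt7, Cyp26a1, Sp5, Nr0b1, Cdx2, Cdh3, Esrp2, Use1, Irf2, Rab8a, Spg7 and those of the chromosome 8 stretch, were chosen after their values were seen. The members and lists were chosen with earlier results of these data known. Alternatives were other pseudocounts, minimum FPKM, scalings, fits and lines left out. The number of reads was unknown, so no counting error is given.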

Additional observations from a re-analysis of the deposited data

Results flagged for a closer look

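A line was singled out where its gap to the nearest line of its group, divided by the range of the group, passed Dixon's 95% critical value for a group of its size (4 AN F or 5 AN P lines). Of 156 groups examined, 17 passed. Chance gives about 1 in 20 for independent groups that were not selected. Many of those examined were genes chosen by gap or p in these data, and AN20 and AN6 had trends over many genes. That rate therefore does not hold here. The line was AN6 in 8, AN20 in 7 and AN7 in 2, and AN1, AN9, AN15, AN2, AN3 and AN5 in 0. Chromosomes with a range under 0.1 over the 9 lines were not examined.

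AN20 lay apart in AN F. It was low for Pou5f1 (ratio 0.954), Snrpf (0.896), Dpcd (0.891) and Rpl30 (0.847). It was high for Kbtbd8 (0.880), Plag1 (0.871) and the Y-linked gene Uty (0.833).

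AN6 lay apart in AN P. It was low for Esrrb (0.821), Ankrd13c (0.809) and Kbtbd8 (0.762), for the mean of the naive pluripotency genes (0.797) and for the mean of the adipocyte progenitor genes (0.8288). It was high for Snrnp35 (0.860), Srp54b (0.757) and Higd2a (0.715).

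AN7 was high in AN P for E330020D12Rik (0.726) and for the median deviation of chromosome 8 (0.904), which was 0.17 in AN7.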

How the results depend on the processing

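No paired analysis was possible because the groups share no replicate numbers. In limma's test 0 genes passed an adjusted p of 0.05 under all 23 alternatives, with a smallest adjusted p of 0.252 to 1.00. The 786 genes at an unadjusted p under 0.05 became 137 to 1986 with 1 line left out (137 without AN20, 227 without AN9, 507 without AN3, 518 without AN6, 1543 without AN15, 1986 without AN1), 53 without AN9 and AN20 together, and 151 without AN6 and AN20. The other alternatives gave counts within 1.5 times of 786. The 153 non-overlapping genes became 168 to 887 with 1 line left out, 468 without AN9 and AN20 and 282 without AN6 and AN20. All 153 were kept in each fit without 1 line and without AN6 and AN20, and 152 without AN9 and AN20, where the minimum FPKM was taken over the remaining lines. Leaving out lines cannot make separate ranges overlap, so apart from that filter this was fixed in advance and does not show stability. Of the 153, 45.1% were higher in AN F, against 59.1% of 132 with the GC and length trends removed (57 shared with the 153) and 55.1% of 156 after quantile normalization (116 shared). The median SD within AN F was 0.18. It was 0.21 with a pseudocount of 0.1, 0.13 with no minimum FPKM and 0.14 with the trends removed. Without AN9 and AN20, which left only 2 lines, it was 0.0941, and it was 0.16 to 0.18 with 1 line left out. The median SD within AN P was 0.12 to 0.16 with 1 line left out. The cause of these shifts was not tested. The differences of Grb10, Zrsr1, Etohi1, Zfp51, Npat, Rpl30, Snrnp35, Gng8, Cenpe, Kif11 and Xist kept their direction in every alternative run. For all of these but Xist, whose ranges overlapped, that was fixed in advance wherever lines were only left out. Settings chosen after seeing the data were the removal of trends and leaving out lines in pairs. The small number of lines and the unknown read depth limit what could be called.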
